A study of Mus musculus with 6 samples.

Results

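The respiratory chain and the ATP synthase of mitochondria are built from subunits of which most are encoded in the nucleus. Their mRNAs were followed here in mouse small-intestinal organoids after a LATS kinase inhibitor. The genes were taken by symbol, under a rule chosen with earlier results of these data known. The symbols were Nduf followed by a, b, c, s or v and a digit (complex I), Sdha to Sdhd (complex II), Uqcr (complex III), Cox4 to Cox8 (complex IV) and Atp5 (complex V). This took 87 of the 24594 rows of the count table, with 40 in complex I, 4 in complex II, 8 in complex III, 18 in complex IV and 17 in complex V. Of the 87 genes, 80 were tested and 7 were below the filter on low counts. All 80 tested genes had at least 10 counts in every library, so none was tested only because of the group in which it was higher.

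Per the labels, organoids of mouse small intestine (epithelial cultures with crypt-like and villus-like regions) were grown from dissociated cells over 96 h. They then received 5 µM NIBR-LTSi, a small-molecule inhibitor of the Hippo pathway kinases LATS1 and LATS2, or a matching amount of the solvent DMSO, and were collected 24 h later. Each group has 3 mRNA sequencing libraries. The sources used here state neither strain, genotype, sex nor age of the donor mice, nor whether the replicates came from different cultures. The p-values therefore reflect the spread among these libraries alone, and that spread may be technical.

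Complexes I and II pass electrons from NADH and from succinate to coenzyme Q, complex III passes them on to cytochrome c, and complex IV reduces oxygen. Complexes I, III and IV pump protons across the inner mitochondrial membrane, and complex V, the ATP synthase, uses the returning protons to make ATP. In the intestinal epithelium this machinery is known to be used by absorptive enterocytes, which spend ATP on ion and nutrient transport, and by crypt base cells. The remaining subunits, encoded on the mitochondrial chromosome, were not analysed here.

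The libraries held 18395427 to 26767043 counts, and the replicate coefficient of variation was 6.02%. Over all 12592 tested genes, 2866 were called higher (22.8%) and 2421 lower (19.2%) with NIBR-LTSi, 42.0% in all (edgeR quasi-likelihood test, Benjamini-Hochberg adjusted p under 0.05), and the median log2 fold change was 0.02. The first 2 principal components of log2 CPM (counts per gene set against the normalised library total) held 51.3% and 31.2% of the variance. PC1 separated the groups, and PC2 spread the libraries inside both groups, with NIBR-LTSi replicate 1 (32) and DMSO replicate 2 (18.4) at the same end. The 7 epithelial markers summed to 8908 to 9491 CPM with NIBR-LTSi and 7997 to 8127 CPM with DMSO. Of these the 3 keratins Krt8, Krt18 and Krt19 rose and Vil1 fell (log2 fold change -0.39), while 3 (Epcam, Cdh1 and Cdx2) were not called. Of markers of other tissues, Dcn (mesenchymal), Cdh5 and Kdr (endothelial) and Cd3e (immune) had no count in any library.

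Respiratory chain subunit mRNAs were lower in NIBR-LTSi organoids in every complex, by small amounts. Of the 80 tested members 55 fell (68.8%), against 19.2% of all tested genes, none rose and 25 were not called. The log2 fold change was below 0 in 76 members and above 0 in 4, with a median of -0.17 (11.3% lower) and a range of -1.17 to 0.18. No member was higher at an unadjusted p under 0.05 in edgeR, and DESeq2 and limma-voom called none higher. The summed level of all members was 18176, 17497 and 16853 CPM in the 3 NIBR-LTSi libraries, against 19473, 20536 and 18784 CPM in the 3 DMSO libraries. Every NIBR-LTSi library was therefore below every DMSO library in the sum, which was 10.7% lower. The summed CPM of all tested genes is set by the normalisation factors, which were 1.003 to 1.023 with NIBR-LTSi and 0.9791 to 0.9897 with DMSO. That sum was 977915 to 997095 CPM with NIBR-LTSi and 1010410 to 1021306 CPM with DMSO, 3.04% lower. This difference and its lack of overlap restate the factors and are no observed fall of all genes. At the level of single genes the groups did not overlap in 55 members, all lower with NIBR-LTSi, where 24.5% of all tested genes were lower without overlap; 51 of these 55 were also called. Because the organoids were sequenced in bulk, fewer cells of a type and less RNA per cell cannot be told apart.

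**Figure D1:**
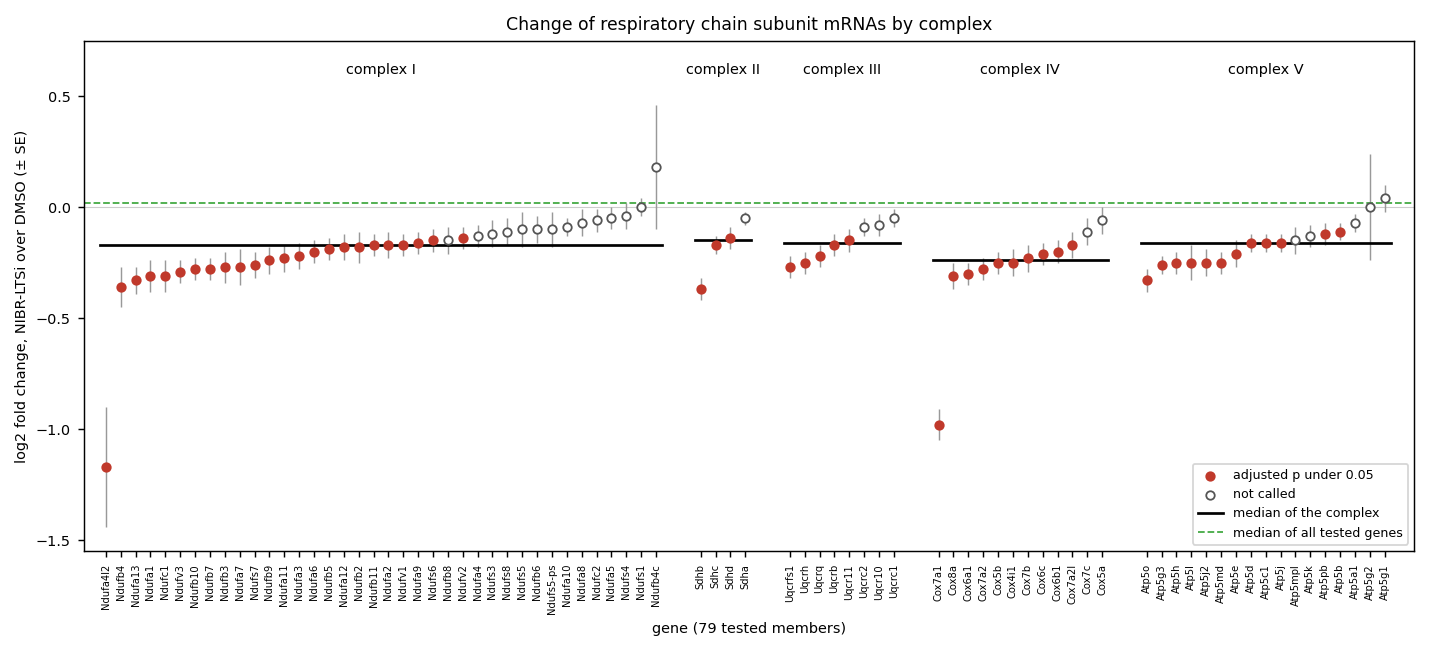
Log2 fold change of NIBR-LTSi over DMSO for 79 of the 80 tested members (points, with SE as bars), sorted within complexes I to V; filled points were called, black lines are medians of the complexes and the dashed line is the median of all tested genes (0.02). Most points lie between -0.4 and 0, with Ndufa4l2 (-1.17) and Cox7a1 (-0.98) far below the others.

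Members fell in each of the complexes. Among all tested genes 19.2% fell, the share to set beside these counts and those of subunit groups below. In complex I 25 of 39 tested members fell (median log2 fold change -0.17), in complex II 3 of 4 (-0.15), in complex III 5 of 8 (-0.16), in complex IV 10 of 12 (-0.24) and in complex V 12 of 17 (-0.16). Summed levels were lower by 11.1% for complex I, 9.59% for complex II, 9.89% for complex III, 15.3% for complex IV and 8.98% for complex V. The sum of all tested genes was 3.04% lower, which restates the normalisation factors. Differences between complexes were not tested, since genes of a complex are not replicates. Falls of 0.5 or more on the log2 scale were called in 2 members (Ndufa4l2 and Cox7a1), 2.5% of those tested, against 4.82% of all tested genes, and the other 53 lay between -0.5 and 0, the smallest called fall being -0.11. Leaving out single libraries moved the number of members that fell to between 38 (without DMSO replicate 1) and 62 (without DMSO replicate 3), and 36 fell in every such fit. Over all genes these fits called 1934 to 2340 lower, against 2421 with all 6 libraries. Under all 19 alternative settings 30 members kept the call: 11 in complex I, 2 in complex II, 3 in complex III, 8 in complex IV and 6 in complex V.

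Promoters of respiratory chain genes are known for sites of the nuclear respiratory factors NRF1 and GABP (an ETS factor). Exact matches were counted on both strands in RefSeq windows (GRCm38.p6) of 250 bases before to 50 after the annotated start, with 70 windows for 65 of the 80 tested members. The NRF1 core GCGCANGCG was in 30.0% of the members' windows and 6.25% of all 32851 windows. The latter cover 27025 genes, tested or not, so genes below the filter are among them. The ETS core CCGGAAG was in 24.3% against 8.86% and the YY1 core AAGATGGCG in 10% against 1.4%. The ERR site TCAAGGTCA was in 2.86% (only 2 windows) against 0.423%. GGAATG, the core bound by TEAD factors (the DNA-binding partners of YAP and TAZ), was in 11.4% of the members' windows and 14.7% of all windows. Among members that fell, 26.0% of 50 windows had the NRF1 core and 26.0% the ETS core, against 40% and 20% of the 20 windows of members not called. A match is a description of letters only. The windows of 5 genes are given because their mRNAs span the range of responses: Sdha (not called), Sdhb, Cox6a1 and Atp5g3 (fell by 0.26 to 0.37) and Cox7a1 (fell by 0.98). Capitals mark the motif letters on either strand: the NRF1 core in Sdha, the ETS core in Sdhb, the NRF1 core (the first run is 2 overlapping matches) and then the ETS core in Cox6a1, and the ERR site and then the NRF1 core in Atp5g3. The Cox7a1 window held none of these motifs. All are written 5′ to 3′ on the gene's strand.
Sdha, chr13:74350191-74350490, minus strand: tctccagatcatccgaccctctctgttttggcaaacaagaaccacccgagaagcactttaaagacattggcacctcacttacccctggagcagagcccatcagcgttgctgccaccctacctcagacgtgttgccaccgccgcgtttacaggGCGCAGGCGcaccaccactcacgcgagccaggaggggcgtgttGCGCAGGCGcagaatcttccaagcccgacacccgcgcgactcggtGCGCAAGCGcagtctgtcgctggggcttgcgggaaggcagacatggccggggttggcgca
Sdhb, chr4:140961021-140961320, plus strand: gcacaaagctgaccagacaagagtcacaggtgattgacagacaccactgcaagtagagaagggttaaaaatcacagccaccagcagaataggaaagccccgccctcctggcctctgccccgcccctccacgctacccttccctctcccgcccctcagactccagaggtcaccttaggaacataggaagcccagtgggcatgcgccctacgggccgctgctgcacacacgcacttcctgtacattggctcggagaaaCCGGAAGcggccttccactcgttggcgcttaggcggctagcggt
Cox6a1, chr5:115348909-115349208, minus strand: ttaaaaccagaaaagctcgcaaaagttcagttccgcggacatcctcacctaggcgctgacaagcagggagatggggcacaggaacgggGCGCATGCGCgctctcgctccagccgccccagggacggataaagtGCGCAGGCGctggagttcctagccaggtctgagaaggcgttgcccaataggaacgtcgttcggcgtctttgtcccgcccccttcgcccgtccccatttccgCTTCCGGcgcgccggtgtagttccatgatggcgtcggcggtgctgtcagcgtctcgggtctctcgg
Atp5g3, chr2:73911277-73911576, minus strand: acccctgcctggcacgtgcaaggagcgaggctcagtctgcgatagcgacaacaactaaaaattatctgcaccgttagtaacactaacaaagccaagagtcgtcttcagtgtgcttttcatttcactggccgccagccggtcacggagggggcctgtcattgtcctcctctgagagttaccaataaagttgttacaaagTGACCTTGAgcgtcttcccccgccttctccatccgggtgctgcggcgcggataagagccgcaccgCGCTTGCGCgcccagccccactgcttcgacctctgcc
Cox7a1, chr7:30183921-30184220, plus strand: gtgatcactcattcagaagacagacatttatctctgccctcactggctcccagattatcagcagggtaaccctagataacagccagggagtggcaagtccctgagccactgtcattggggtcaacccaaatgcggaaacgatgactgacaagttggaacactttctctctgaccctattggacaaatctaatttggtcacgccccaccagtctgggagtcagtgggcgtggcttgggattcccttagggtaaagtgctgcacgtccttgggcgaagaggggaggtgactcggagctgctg

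In complex I, 4 of 7 tested core subunits, which carry the NADH site, the iron-sulfur clusters and the coenzyme Q site, fell (median log2 fold change -0.14), and 20 of 28 accessory subunits fell (-0.19). Ndufv3, an accessory subunit of the NADH-binding arm, had 89.0, 90.5 and 89.5 CPM with NIBR-LTSi, against 111, 115 and 104 CPM with DMSO. The groups were apart and the NIBR-LTSi libraries were nearly equal; the log2 fold change was -0.29 ± 0.05 (SE; adjusted p = 3.70e-04). Ndufb7, an accessory subunit of the membrane arm, had 69.0, 71.1 and 68.1 CPM with NIBR-LTSi and 87.7, 83.8 and 80.9 CPM with DMSO, again without overlap (log2 fold change -0.28 ± 0.05, adjusted p = 4.81e-04). Ndufa13, also known as GRIM-19, averaged 95.1 ± 6.03 CPM with NIBR-LTSi and 119 ± 6.52 CPM with DMSO (SD, n = 3 each), a log2 fold change of -0.33 ± 0.06 (adjusted p = 5.89e-04); its gene overlaps Tssk6. Ndufb10, a membrane arm subunit, fell by 0.28 (adjusted p = 0.00163). Of the core subunits, Ndufs7, which lines the coenzyme Q site, fell by 0.26 (adjusted p = 0.00348) and Ndufv1, which binds NADH, by 0.17 (adjusted p = 0.0109; log2 fold change -0.102 and adjusted p = 0.067 after the adjustment for transcript length and GC content). These last 2 were named after their values were seen. Ndufs1, the largest iron-sulfur subunit, was level in the same libraries, at 197, 191 and 184 CPM with NIBR-LTSi and 186, 196 and 189 CPM with DMSO. Its groups overlapped fully (log2 fold change 0.00 ± 0.04, adjusted p = 0.952); it too was named after its values were seen.

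By level per kilobase of the deposited gene width the leading complex I mRNAs were the accessory subunits Ndufa6 and Ndufb9. Ndufa6 fell by 0.20 (adjusted p = 0.00363; 0.0933 after the adjustment for transcript length and GC content and 0.0641 with the width adjustment and replicate block) and Ndufb9 by 0.24 (adjusted p = 0.00966; 0.0585 without DMSO replicate 2). Ndufa8 was at 104 ± 5.91 CPM with NIBR-LTSi and 109 ± 8.36 CPM with DMSO (adjusted p = 0.396). Ndufs5 and the row Ndufs5-ps had near-identical counts in each library (532 and 543 in NIBR-LTSi replicate 1, 715 and 730 in DMSO replicate 1), so the same reads may stand in both rows; neither was called. Ndufb4 fell by 0.36 (adjusted p = 0.0518 without DMSO replicate 1) and its paralogue row Ndufb4c, at 1.59 ± 0.394 CPM with NIBR-LTSi and 1.41 ± 0.367 CPM with DMSO, was not called; both were named after their values were seen, and reads could be split between them. Among accessory subunits of complex I not yet given, Ndufa1 averaged 38.7 ± 3.27 CPM with NIBR-LTSi and 47.7 ± 3.48 CPM with DMSO (fell by 0.31, adjusted p = 0.00553; the gene overlaps Rnf113a1). Ndufc1 had 41.3, 41.6 and 36.2 CPM with NIBR-LTSi and 50.2, 50.9 and 46.1 CPM with DMSO (fell by 0.31, adjusted p = 0.00259). In both genes NIBR-LTSi replicate 3 and DMSO replicate 3 were the lowest libraries of their groups and the groups did not overlap. Ndufa10, at 229 ± 3.90 CPM with NIBR-LTSi and 244 ± 7.16 CPM with DMSO, and Ndufb8, at 131 ± 7.27 and 145 ± 9.68 CPM in the same order, did not overlap between groups either but missed the threshold (adjusted p = 0.0633 for Ndufa10 and 0.0568 for Ndufb8). Ndufa10 was called in 3 alternatives, without DMSO replicate 3 (adjusted p = 0.0379), in DESeq2 and with DESeq2 size factors. Ndufb8 was called in 9 alternatives (adjusted p = 0.0276 to 0.0478), among them the fits without NIBR-LTSi replicate 1 or DMSO replicate 3, both other filters, the replicate block and both width adjustments. These 4 were named after their values were seen. Ndufb11b had 4 counts, all in DMSO replicate 2, and was not tested.

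Ndufa4 and Ndufa4l2 carry complex I symbols, although the Ndufa4 protein is known as a subunit of complex IV. Ndufa4l2, a relative induced by hypoxia, had the lowest fold change of all members from a very low level: 0.671, 0.532 and 0.585 CPM with NIBR-LTSi (13, 13 and 16 counts), against 1.32, 1.22 and 1.46 CPM with DMSO (33, 22 and 31 counts). The groups were apart, with a log2 fold change of -1.17 ± 0.27 (adjusted p = 0.00433). The gene overlaps Shmt2, which rose to 110 ± 1.61 CPM with NIBR-LTSi, against 74.7 ± 5.47 CPM with DMSO (log2 fold change 0.57 ± 0.05, adjusted p = 5.55e-06), the opposite direction. Ndufa4 itself was at 181 ± 11.2 CPM with NIBR-LTSi and 198 ± 11.6 CPM with DMSO and was not called (adjusted p = 0.0843; 0.0165 without NIBR-LTSi replicate 1, 0.0218 without DMSO replicate 3 and 0.0268 without NIBR-LTSi replicate 1 and DMSO replicate 2). Counting both with complex IV left 24 complex I members that fell.

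The fold change of the 4 complex II mRNAs ranged from -0.37 (Sdhb) to -0.05 (Sdha). Sdhb (chromosome 4, 140961271 to 140979198), the iron-sulfur subunit, had 253, 249 and 231 CPM with NIBR-LTSi, against 310.3, 340.5 and 299 CPM with DMSO. All NIBR-LTSi libraries were below all DMSO libraries, the level was 22.8% lower, and the log2 fold change was -0.37 ± 0.05 (adjusted p = 1.97e-04). Sdha (chromosome 13, 74322255 to 74350240), the FAD-carrying subunit that binds Sdhb and oxidises succinate, had 732.8, 709 and 723 CPM with NIBR-LTSi, against 733.0, 765 and 751 CPM with DMSO. The highest NIBR-LTSi library all but met the lowest DMSO library, and the difference of 3.74% was not called (log2 fold change -0.05 ± 0.03, adjusted p = 0.210; 0.0484 after the adjustment for transcript length and GC content). Of the counts of the pair, Sdhb took 25.3% ± 0.964 with NIBR-LTSi and 29.7% ± 1.15 with DMSO (SD, n = 3 each). The shares did not overlap, with a two-sided exact permutation p of 0.10, the smallest that 3 libraries against 3 allow. The pair holds the lowest and the highest fold change of complex II, so the share restates those values and gives no separate support.

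The membrane anchors of complex II, which hold heme and the coenzyme Q site, lay between those values. Sdhc had 304, 286 and 286 CPM with NIBR-LTSi and 324, 345 and 317 CPM with DMSO, without overlap (log2 fold change -0.17 ± 0.04, adjusted p = 0.00755). Sdhd had 414, 395 and 382 CPM with NIBR-LTSi and 427, 466 and 416 CPM with DMSO, with only a small gap between the groups (-0.14 ± 0.05, adjusted p = 0.0374). The Sdhd call was lost with library totals only, with both width adjustments and without NIBR-LTSi replicate 2 or 3 or DMSO replicate 1 or 2, where the adjusted p was 0.0697 to 0.208.

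**Figure D2:**
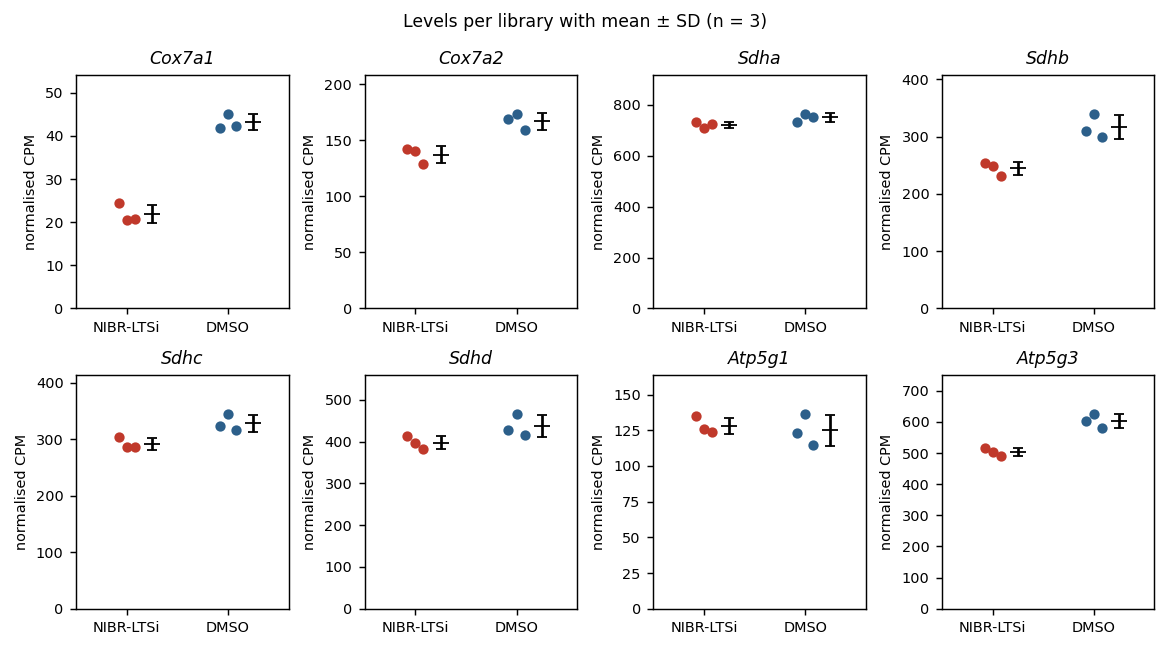
Normalised CPM of Cox7a1, Cox7a2, the 4 complex II genes and the c-ring genes Atp5g1 and Atp5g3 in each NIBR-LTSi library (left of each panel) and each DMSO library (right), with mean and SD beside the points (n = 3). Cox7a1 shows the widest gap, at 20.6 to 24.4 CPM with NIBR-LTSi and 41.9 to 45.2 CPM with DMSO, while the Atp5g1 points of the groups overlap.

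In complex III the Rieske iron-sulfur protein and 4 of the 5 small subunits fell, whereas the pair of large core proteins was not called in the comparison of all 6 libraries without a length adjustment. Uqcrfs1, the Rieske protein, had 278, 263 and 252 CPM with NIBR-LTSi, against 311, 342 and 307 CPM with DMSO. The groups were clearly apart (log2 fold change -0.27 ± 0.05, adjusted p = 9.62e-04). Uqcrh, the hinge protein at the cytochrome c1 site, fell by 0.25 (adjusted p = 0.00157) and Uqcrq by 0.22 (adjusted p = 0.00347). Uqcrb fell by 0.17 (adjusted p = 0.0119), a call lost after the width and transcript length adjustments (adjusted p = 0.116 to 0.210), and Uqcr11 by 0.15 (adjusted p = 0.0407; 0.0538 to 0.655 in the 10 alternatives that lost the call, and a positive sign after the adjustment for transcript length and GC content). Uqcr10 was at 118 ± 6.86 CPM with NIBR-LTSi and 125 ± 5.23 CPM with DMSO (log2 fold change -0.08 ± 0.05, adjusted p = 0.243). The core proteins Uqcrc1 and Uqcrc2, which form the matrix-facing part of the complex, had log2 fold changes of -0.05 ± 0.04 (adjusted p = 0.355) and -0.09 ± 0.04 (adjusted p = 0.0848). Uqcrc2 was called lower in 3 alternatives, without NIBR-LTSi replicate 1 (adjusted p = 0.0265), without that library and DMSO replicate 2 (0.025) and after the adjustment for transcript length and GC content (0.0104). Uqcrc1 was named after its values were seen. With either width adjustment or the transcript length adjustment only 3 of the 8 complex III genes fell.

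Complex IV held the clearest single change, in the isoform gene Cox7a1 (chromosome 7, 30184171 to 30186030), whose product is known as the subunit VIIa of heart and skeletal muscle. It had 24.4, 20.6 and 20.8 CPM with NIBR-LTSi, against 41.9, 45.2 and 42.4 CPM with DMSO. No library came near the other group; the level was 1.98-fold lower (log2 fold change -0.98 ± 0.07, adjusted p = 7.24e-07). Its paralogue Cox7a2 (chromosome 9, 79755241 to 79771422), the subunit VIIa of most tissues, had 143, 140.3 and 129 CPM with NIBR-LTSi, against 169, 174 and 159 CPM with DMSO. These groups did not overlap either, but the fall was smaller (log2 fold change -0.28 ± 0.05, adjusted p = 7.24e-04). Cox7a1 took 13.8% ± 0.907 of the counts of the pair with NIBR-LTSi and 20.5% ± 0.603 with DMSO, shares that did not overlap (two-sided exact permutation p of 0.10, the smallest possible). Per kilobase of principal transcript, Cox7a1 was at 55.8 CPM with NIBR-LTSi and 109.8 CPM with DMSO and Cox7a2 at 208 and 254 CPM in the same order of groups. Cox7a2l, a related factor that joins complexes III and IV into supercomplexes, fell by 0.17 (adjusted p = 0.0427), a call lost in 7 alternatives, among them the fits without NIBR-LTSi replicate 2 or 3 or DMSO replicate 1 or 2 (adjusted p = 0.0941 to 0.158).

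Of the 9 other tested complex IV members 7 fell (median log2 fold change -0.23). Cox6a1, a subunit of most tissues, had 358, 343 and 326 CPM with NIBR-LTSi, against 423, 447 and 398 CPM with DMSO. The groups were apart (log2 fold change -0.30 ± 0.05, adjusted p = 3.84e-04). Cox8a fell by 0.31 (adjusted p = 0.00114), the zinc-binding Cox5b by 0.25 (adjusted p = 0.00105), Cox4i1, where ATP is known to bind and slow the enzyme, by 0.25 (adjusted p = 0.00668), Cox7b by 0.23 (adjusted p = 0.00851) and Cox6b1 by 0.20 (adjusted p = 0.00967; 0.0504 without DMSO replicate 1, and a log2 fold change of -0.0881 with adjusted p = 0.057 after the width adjustment, 0.118 with the replicate block added). Cox6c, named after its values were seen, had 188, 182 and 168 CPM with NIBR-LTSi and 209, 219 and 195 CPM with DMSO, without overlap (fell by 0.21, adjusted p = 0.00737). Not called were Cox5a (215 ± 11 CPM with NIBR-LTSi and 224 ± 19.3 CPM with DMSO, adjusted p = 0.458) and Cox7c (110.1 ± 1.63 and 119 ± 10.7 CPM in the same order, adjusted p = 0.160; 0.00628 without DMSO replicate 3). The isoforms of muscle, lung or testis other than Cox7a1 were below the filter. Cox4i2 and Cox8b had no count in any library, which allows up to 0.112 to 0.163 CPM (3 counts in the deepest and the shallowest library, counting error only). Cox6a2 had 1 to 8 counts a library, Cox6b2 7 to 18, Cox7b2 0 to 4 and Cox8c 0 to 2.

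In the ATP synthase the catalytic head, the stalk and the membrane part all held members that fell. Atp5b, the catalytic beta subunit and by level per transcript length the leading member of all (1164 CPM per kilobase with NIBR-LTSi and 1253 with DMSO), had 2319, 2199.7 and 2172 CPM with NIBR-LTSi, against 2378, 2477 and 2347 CPM with DMSO. The gap between the groups was narrow; the fall of 7.09% was called (log2 fold change -0.11 ± 0.04, adjusted p = 0.0358) and the call was lost in 6 alternatives, 4 of them fits without 1 library (adjusted p = 0.0811 to 0.139). Its partner Atp5a1, the alpha subunit, was at 1860.2 ± 69.0 CPM with NIBR-LTSi and 1949 ± 56.6 CPM with DMSO and was not called (-0.07 ± 0.04, adjusted p = 0.174; 0.0488 without NIBR-LTSi replicate 1 and DMSO replicate 2). The other 3 tested subunits of the F1 head, gamma (Atp5c1), delta (Atp5d) and epsilon (Atp5e), fell by 0.16, 0.16 and 0.21 and were named after their values were seen. The Atp5e call was lost without NIBR-LTSi replicate 2 or 3 or DMSO replicate 1 or 2 (adjusted p = 0.0547 to 0.0752) and after the transcript length adjustment (0.162, and 0.484 with GC content added). The Atp5d call was lost after the adjustment for transcript length and GC content (log2 fold change -0.0713, adjusted p = 0.102).

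All 4 subunits of the peripheral stalk fell. Atp5o, the subunit known as OSCP that ties the stalk to the head, had 317, 332 and 296 CPM with NIBR-LTSi, against 400.2, 414 and 372 CPM with DMSO. The groups were apart (log2 fold change -0.33 ± 0.05, adjusted p = 3.68e-04). Atp5h, subunit d, fell by 0.25 (adjusted p = 0.00201). Atp5j, the coupling factor F6, and Atp5pb, subunit b, named after their values were seen, fell by 0.16 (adjusted p = 0.0104) and 0.12 (adjusted p = 0.0449); for Atp5pb the groups overlapped, with 443, 416 and 414 CPM with NIBR-LTSi and 454, 491 and 441 CPM with DMSO. The Atp5pb call was lost in 7 alternatives, among them the fits without NIBR-LTSi replicate 2 or 3 or DMSO replicate 1 or 2 (adjusted p = 0.0868 to 0.148), and the Atp5j call after the adjustment for transcript length and GC content (0.291). The Atp5j gene overlaps Gabpa. Of 5 small membrane subunits 3 fell, among them Atp5md (fell by 0.25, adjusted p = 0.00209), known as DAPIT and involved in joining synthase dimers. Atp5j2 (subunit f) and Atp5l (subunit g), named after their values were seen, each fell by 0.25 (adjusted p = 0.00861 and 0.0277). The Atp5l call was lost without NIBR-LTSi replicate 2 or 3 or DMSO replicate 1 or 2 (adjusted p = 0.0703 to 0.0889) and with the width adjustment and replicate block together (0.0508). Atp5k, subunit e, was at 66.9 ± 3.06 CPM with NIBR-LTSi and 73.1 ± 3.57 CPM with DMSO (adjusted p = 0.0676; 0.0231 without DMSO replicate 3 and 0.0476 with DESeq2 size factors).

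The c ring, the rotor that protons turn, is made of identical proteins encoded by the 3 genes Atp5g1, Atp5g2 and Atp5g3, of which only Atp5g3 was called. Atp5g3 (chromosome 2, 73908447 to 73912464) had 516, 504 and 490.1 CPM with NIBR-LTSi, against 603, 626 and 579.9 CPM with DMSO. The groups were far apart for a gene at this level (log2 fold change -0.26 ± 0.04, adjusted p = 1.81e-04). Atp5g1 (chromosome 11, 96072793 to 96075694) had 135, 126 and 124 CPM with NIBR-LTSi, against 123, 137 and 115 CPM with DMSO. These groups overlapped (log2 fold change 0.04 ± 0.06, adjusted p = 0.680), and the sign turned without NIBR-LTSi replicate 1 or DMSO replicate 3 and after the transcript length adjustments. Atp5g1 took 20.3% ± 0.361 of the counts of the pair with NIBR-LTSi and 17.1% ± 0.709 with DMSO, without overlap (two-sided exact permutation p of 0.10, the smallest possible). Atp5g2 was at 2.39 ± 0.466 CPM with NIBR-LTSi and 2.37 ± 0.707 CPM with DMSO (adjusted p = 0.995).

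Levels among members can be compared only per length, and the order depended on which length was used. Per kilobase of the principal GENCODE transcript, Atp5b was followed in DMSO organoids by Cox4i1, Atp5g3 and Atp5a1. Per kilobase of the deposited gene width, Atp5a1 (593 CPM per kilobase with NIBR-LTSi and 622 with DMSO) stood above Atp5b (526 and 566 in the same order). The deposited width can be much longer than the principal transcript (4522 against 623 bases for Ndufb7). Complex I members had the lowest median on both scales.

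**Figure D3:**
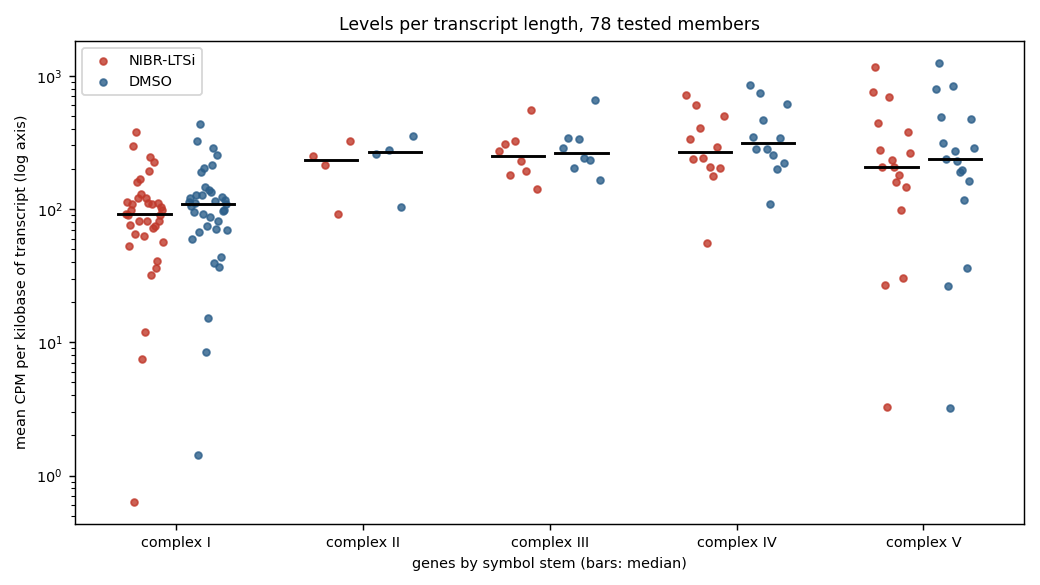
Mean CPM per kilobase of the principal transcript (log axis) for the 78 tested members with such a transcript, in NIBR-LTSi organoids (left in each pair) and DMSO organoids (right), by complex, with bars at the medians. Atp5b lies highest (1164 with NIBR-LTSi and 1253 with DMSO) and Ndufa4l2 lowest (0.638 and 1.43 in the same order).

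The members moved together across libraries as well as between groups. Within the NIBR-LTSi group, replicate 1 was the highest library in 62 of 80 members and replicate 3 the lowest in 65. Within the DMSO group, replicate 2 was the highest library in 71 of 80 members and replicate 3 the lowest in 72. Over all tested genes, NIBR-LTSi replicate 1 was the highest of its group in 38.1% and DMSO replicate 2 in 37.9%. The matching shares for the lowest libraries were not calculated. The libraries that were highest in most members had the lowest totals of their groups, at 19323994 counts (NIBR-LTSi replicate 1) and 18395427 counts (DMSO replicate 2), and lay at the same end of PC2. With both of these left out, 55 members fell, 52 of them among the 55 of the full comparison. The part of depth or of other library properties in this pattern was not tested.

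**Figure D4:**
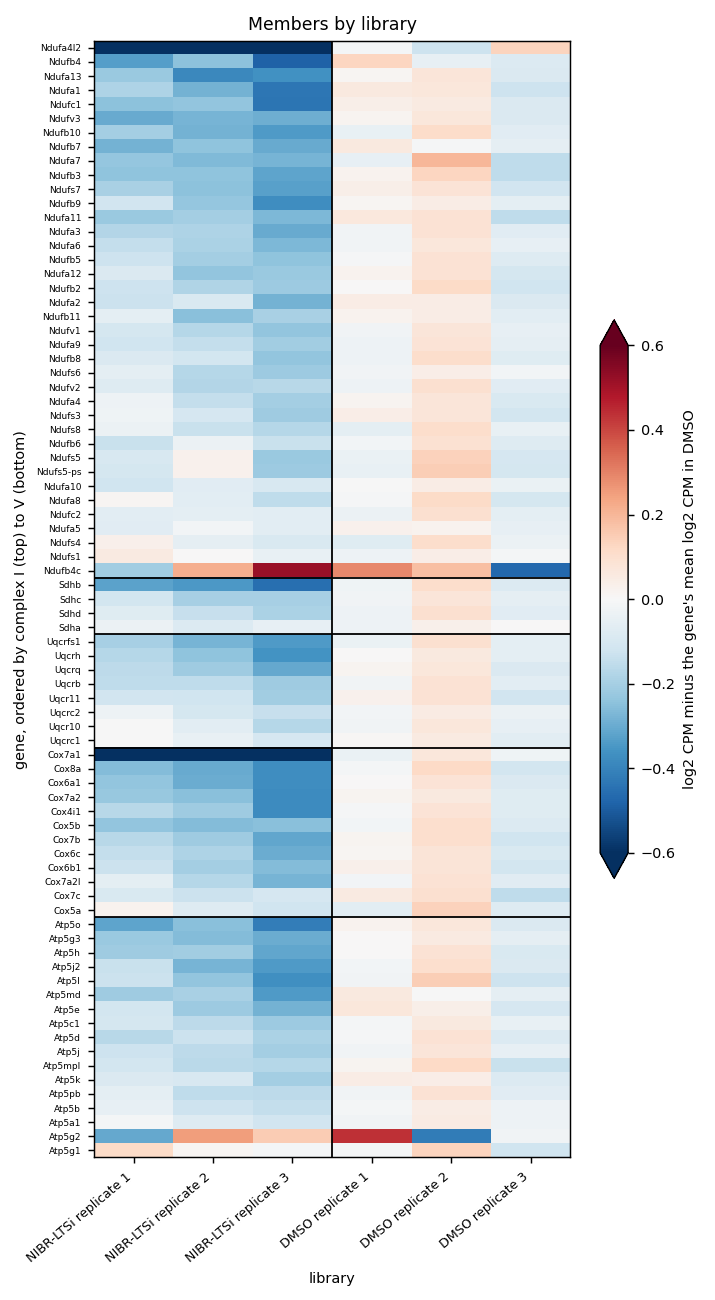
Colour gives each library's log2 CPM minus that gene's mean log2 CPM in DMSO for 79 of the 80 tested members (rows, ordered by complex and fold change), with the 3 NIBR-LTSi libraries on the left and the 3 DMSO libraries on the right; colours saturate at 0.6 in either direction. Most NIBR-LTSi cells are blue (lower), with the palest column for replicate 1, and most cells of DMSO replicate 2 are red.

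Members are short transcripts, with a median of 863 bases against 2950 bases for all tested genes, and their median GC content was 51.4% against 50.4%. Across the 78 members with a principal transcript, the log2 fold change had a Spearman correlation of 0.25 with log2 length and -0.25 with GC content, and across 12141 tested genes these values were 0.15 and -0.18. These are descriptions across genes, which share the same libraries and are not independent. With a per-library adjustment for the deposited width 48 members fell, with one for transcript length 49, and with length and GC content together 44, of which 42 were among the 55. The shares of all tested genes that fell under these adjustments are not given here. The 19.2% above belongs to the unadjusted comparison. Of the tested members 18 overlap another gene with counts, and 13 of these fell. Whether the counting used strand is not stated. Of the 62 members without such an overlap 42 fell, where 19.2% of all tested genes fell.

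Markers of intestinal cell types changed as well. For comparison, 22.8% of all tested genes rose and 19.2% fell. Of 10 enterocyte markers 4 rose and 5 fell, with log2 fold changes from -1.06 to 1.89 (median -0.20). Their summed level was 34668 to 37233 CPM with NIBR-LTSi, below the 40390.4 to 41477 CPM with DMSO, a difference of 12.6%. The most abundant of them held 1654524 counts over the 6 libraries, so the sum mostly follows abundant genes. The 3.04% lower sum of all tested genes restates the normalisation factors. Of 7 proliferation markers 6 rose, with sums of 665.5 to 745.5 CPM with NIBR-LTSi and 424 to 455 CPM with DMSO. Of 6 goblet cell markers 2 rose (Clca1 and Zg16) and none fell (median log2 fold change -0.04). Their sums, 1601 to 1705 CPM with NIBR-LTSi and 1051 to 1100.4 CPM with DMSO, differed mostly through Clca1 (791.8 ± 4.23 and 233.8 ± 3.51 CPM in the same order), while the mucin Muc2 was at 124.5 ± 31.3 and 164 ± 12 CPM and was not called. Crypt base stem cell markers, of which 4 of 5 were tested, summed to 158 to 169.9 CPM with NIBR-LTSi and 149 to 159 CPM with DMSO. Of these Smoc2, at 146 ± 5.81 CPM with NIBR-LTSi and 127 ± 4.11 CPM with DMSO, rose and made up most of the sum, while Lgr5 fell by 38.2% and Olfm4 by 48.9%, and the median log2 fold change of the list was -0.36. Paneth cell markers summed to 454 to 511 CPM with NIBR-LTSi and 565 to 622 CPM with DMSO (2 of 5 rose and 2 fell), enteroendocrine markers to 337 to 351 and 431 to 449.7 CPM in the same order (1 of 6 rose and 3 fell), and tuft cell markers to 5.01 to 6.36 and 7.28 to 7.61 CPM (1 of 5 fell). Markers of tissues outside the epithelium were near 0, with mesenchymal sums of 6.76 to 7.40 CPM with NIBR-LTSi and 8.65 to 10.4 CPM with DMSO, endothelial sums of 0.329 to 0.655 and 0.641 to 0.803 CPM, and immune sums of 9.91 to 11.7 and 9.55 to 9.82 CPM, each in the same order. The part of cell composition in the falls of respiratory chain mRNAs was not tested.

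**Figure D5:**
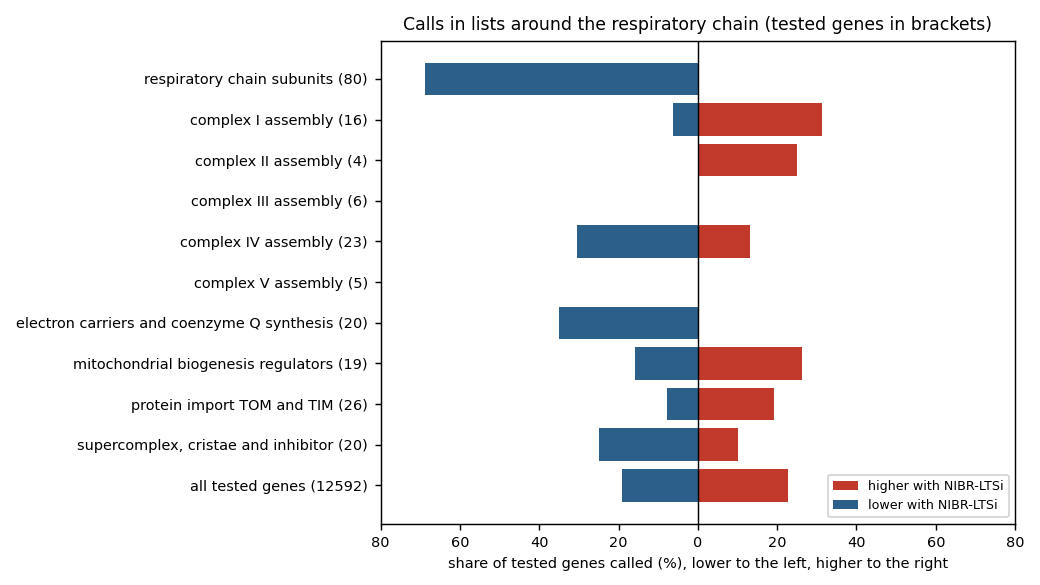
Share of tested genes called lower (left, blue) and higher (right, red) with NIBR-LTSi in the respiratory chain subunits, in lists of genes around the respiratory chain and in all tested genes; brackets give the number tested. The subunits stand at 68.8% lower and 0% higher, and all tested genes at 19.2% lower and 22.8% higher.

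Genes whose products build the complexes moved in both directions, as did all tested genes, of which 22.8% rose and 19.2% fell. Of 16 tested complex I assembly genes 5 rose and 1 fell (median log2 fold change 0.03). Acad9, an assembly factor related to acyl-CoA dehydrogenases, rose to 44.1 ± 3.95 CPM with NIBR-LTSi, against 31.9 ± 1.69 CPM with DMSO (log2 fold change 0.46 ± 0.07, adjusted p = 2.82e-04), and Ndufaf4 rose by 0.32 (adjusted p = 0.00180), while Ndufaf3, its known partner in the same assembly step, fell by 0.38 (adjusted p = 0.00221). Of 4 complex II assembly genes Sdhaf3, which helps place the iron-sulfur clusters of Sdhb, rose to 13.4 ± 0.690 CPM, against 9.12 ± 0.278 CPM with DMSO (log2 fold change 0.56 ± 0.08, adjusted p = 2.11e-04), opposite to Sdhb itself. None of 6 complex III and none of 5 complex V assembly genes was called in the main edgeR test. Bcs1l, which inserts the Rieske protein, was not called, at a log2 difference of 0.18 ± 0.07 (adjusted p = 0.0765; 0.0297 with library totals only, 0.0306 after the width adjustment and 0.0412 after that for transcript length and GC content), nor was the ATP synthase factor Fmc1, at -0.25 ± 0.11 (adjusted p = 0.0916; 0.00840 without NIBR-LTSi replicate 1 and 0.0172 without that library and DMSO replicate 2). Ttc19, a complex III assembly gene at 20.7 ± 1.41 CPM with NIBR-LTSi and 23.1 ± 1.40 CPM with DMSO (log2 difference -0.16 ± 0.07, adjusted p = 0.102), was called lower in all 4 edgeR fits with a width or transcript length adjustment (adjusted p = 0.0124 to 0.0465). Of 23 complex IV assembly genes 3 rose and 7 fell: Cox16, which acts in the building of the copper centre, rose to 84.0 ± 3.23 CPM, against 57.9 ± 2.35 CPM with DMSO (log2 fold change 0.54 ± 0.05, adjusted p = 4.57e-06), while Surf1, a heme-related assembly factor, fell by 0.33 (adjusted p = 3.46e-04) and the copper carrier Sco2 by 0.30 (adjusted p = 0.00101).

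Electron carriers and coenzyme Q synthesis held 7 of 20 genes that fell and none that rose (median log2 fold change -0.04). For this list and the next, the shares over all tested genes were 19.2% lower and 22.8% higher. Pdss1, which with Pdss2 makes the isoprenoid tail of coenzyme Q, fell to 93.5 ± 0.424 CPM with NIBR-LTSi, against 133 ± 4.55 CPM with DMSO (log2 fold change -0.51 ± 0.04, adjusted p = 1.71e-06). Cyc1, the cytochrome c1 of complex III, which the symbol rule does not take, fell by 0.22 (adjusted p = 4.11e-04) and Coq4 by 0.40 (adjusted p = 0.00457). Among 20 genes of supercomplexes, cristae and ATP synthase inhibition 2 rose and 5 fell, Cox7a2l of the members among them. Higd2a, a complex IV supercomplex factor, fell by 0.35 (adjusted p = 1.07e-04) and Atpif1, the inhibitor of the ATP synthase, by 0.31 (adjusted p = 2.50e-04). Slc25a4, the ADP/ATP carrier isoform of heart and muscle, moved the other way, with 45.0 ± 2.52 CPM with NIBR-LTSi and 21.0 ± 1.06 CPM with DMSO (2.15-fold higher, adjusted p = 1.14e-07), while the more abundant isoform Slc25a5, named after its values were seen, was at 880.5 ± 47.4 CPM with NIBR-LTSi and 1015 ± 73.8 CPM with DMSO (fell by 0.21, adjusted p = 0.0149).

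Regulators of mitochondrial biogenesis moved both ways, with 5 of 19 higher and 3 lower (median log2 fold change 0.08), which is near the 22.8% higher and 19.2% lower among all tested genes. Ppargc1a, which encodes the co-activator PGC-1 alpha, rose to 36.6 ± 1.09 CPM with NIBR-LTSi, against 13.6 ± 0.718 CPM with DMSO (2.71-fold, log2 fold change 1.44 ± 0.06, adjusted p = 1.41e-08). Esrra, the orphan receptor ERR alpha that PGC-1 alpha co-activates, fell to 215 ± 3.33 CPM, against 259.7 ± 4.80 CPM with DMSO (log2 fold change -0.27 ± 0.04, adjusted p = 7.66e-05), and Mterf2, a mitochondrial transcription factor, fell by 0.60 (adjusted p = 7.92e-05). Of 26 genes of the TOM and TIM protein import machinery 5 rose and 2 fell (median log2 fold change 0.02). In all 26.9% of these were called, against 42.0% of all tested genes. The import motor chaperone Hspa9 rose by 0.20 (adjusted p = 0.00163), the import channel Tomm40 by 0.23 (adjusted p = 0.00556) and the small translocase subunit Tomm5 by 0.28 (adjusted p = 0.00642).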

How the data were processed

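Messenger RNA of 6 libraries (3 NIBR-LTSi, 3 DMSO) was sequenced with a stranded kit, per the labels' protocols. The authors deposited 1 table of raw read counts per gene, each row carrying its Entrez number, its symbol and the gene's width. Per the submitters' processing notes the build was mm10 and edgeR was used; the aligner, the counter and its use of strand are not stated in the sources used here. Of 24594 rows 18127 had a count, 15 had no symbol, and filterByExpr kept 12592 genes. The main test was edgeR's quasi-likelihood F-test (edgeR 4.0.16 in R 4.3.3), run on TMM factors with robust estimation and group as the only term, two-sided, with 4 residual degrees of freedom and Benjamini-Hochberg adjustment over all tested genes at 0.05. It was checked on simulated counts with 200 changed genes. That setting does not cover changes as small as those of most members or as widespread as those seen here. Levels are TMM-normalised CPM, given as mean ± SD over 3 libraries; fold changes are NIBR-LTSi over DMSO with an approximate SE calculated back from the test. Within groups, chi-square per degree of freedom between libraries was 4.46 to 11.3, so none was counted as a duplicate.

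The members and lists were chosen with earlier results of these data known. Genes named were, in each complex, the 4 called lower with the smallest p, the 2 leading by level per deposited width, the 2 leading uncalled ones, all Sdh genes, isoform pairs, called genes with an absolute log2 fold change of at least 0.5, and up to 3 genes per pathway list with the smallest p. Shares of a gene pair were compared with exact permutation tests. These were not among the planned tests, and they restate the fold changes of the paired genes without separate support. Transcript length and GC content came from principal GENCODE transcripts of GRCm38 (78 of 80 tested members, 96.4% of tested genes), coordinates and promoters from RefSeq GRCm38.p6, which matched all 87 members. Alternatives were limma-voom (3.58.1), DESeq2 (1.42.0), 3 other scalings, 2 other filters, the replicate number as a block, width adjustments with and without it, leaving out each library, and assignment of Ndufa4 and Ndufa4l2 to complex IV. Added after seeing the data were the transcript length and GC adjustments, and leaving out DMSO replicate 2 and NIBR-LTSi replicate 1 together. Of the tested members 1 is counted in all totals and medians but is not reported by name or drawn in the figures that label every gene.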

Additional observations from a re-analysis of the deposited data

How the results depend on the processing

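No setting called a member higher. The number of members called lower was 55, and 38 to 62 over all settings: 55 in limma-voom, 54 in DESeq2, 59 with DESeq2 size factors, 50 with upper-quartile factors, 43 with library totals only, 56 with either other filter and 38 to 62 without single libraries. The fold change of 65 members was below 0 in every setting. In complex I, 25 members were called lower and 16 to 29 without single libraries, the lowest without DMSO replicate 1. In complex III, 5 were called lower with a median log2 fold change of -0.16, against 3 and -0.074 after the width adjustment, with or without the replicate block, and 3 and -0.069 after the transcript length adjustment. The median of complex V (-0.16) was -0.101 after the transcript length adjustment and -0.077 with GC content added; with both, the medians were -0.101 in complex I (-0.17) and -0.139 in complex IV (-0.24). The cause of these shifts was not tested.

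Of 1273 alternative values of 67 named genes, 1188 kept direction and side of the threshold, 39 lost and 20 gained a call, and 26 changed sign. Sign changes after the width adjustment were Ndufa8 (0.0293, and 0.0298 with the block) and Uqcr10 (0.0423 in both). After the transcript length adjustment they were Uqcr10 (0.0482), Cox5a (0.0301), Atp5k (0.0131) and Atp5g1 (-0.0153), and with GC content added Ndufa8 (0.0315), Uqcr11 (0.0435), Uqcr10 (0.0906), Cox5a (0.0245), Atp5k (0.0476) and Atp5g1 (-0.0425). Atp5g2 turned in DESeq2 (-0.0141), with DESeq2 size factors (-0.0157), under the 1 CPM filter (-0.000452) and without DMSO replicate 2 and NIBR-LTSi replicate 1 (-0.0471). Without single libraries Atp5g2 ranged from -0.172 to 0.259, Atp5g1 from -0.0212 to 0.103, Cox5a from -0.109 to 0.0109 and Sdhaf1 from -0.197 to 0.0428. The median of all genes moved by at most 0.045 on the log2 scale, with library totals only.

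Same-numbered libraries deviated from their group means with correlations of 0.0482, -0.296 and 0.562, and NIBR-LTSi replicate 1 correlated best with DMSO replicate 2 (0.528), so the numbers were not taken as pairs; with the replicate block 52 members were called lower, and 43 with the width adjustment added. Depth limits the isoform genes below the filter, whose counts reach 18 at most.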
